A study of Homo sapiens with 4 samples.

Results

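Among 60651 genes counted in KP4 cells, a human pancreatic ductal adenocarcinoma line, 498 were abundant long noncoding RNAs (lncRNAs) left after hosts of small nucleolar RNAs were removed by name. They were the lncRNA rows of the stranded count table with a mean CPM (count scaled to the total of gene reads in the library) of 5 or more in at least 1 group, without the SNHG genes, GAS5, ZFAS1 and EPB41L4A-AS1. Hosts under other names were not searched for and may remain. The table holds 16795 lncRNA rows in all. The 4 groups were control cells given FOLFIRINOX, control cells given vehicle, E5 cells given FOLFIRINOX and E5 cells given vehicle, each for 96 h. The drug mix combined oxaliplatin at 5 µM, SN-38 (which the body makes from irinotecan) at 25 nM and a compound the labels call 5-F at 10 µM, and DMSO served as vehicle. E5 stands for 5 cycles of treatment, and the title calls such cells resistant, but the earlier exposure of the E5 cells later given vehicle could not be worked out. Each group is 1 GEO sample with 3 numbered columns, read as n = 3 libraries that may be technical repeats, in which case the p-values measure technical spread.

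LncRNAs are transcripts that code for no known protein. Many start beside or inside a protein-coding gene, on the other strand, and many are short-lived in the nucleus because the nuclear exosome degrades them. A few are stable scaffolds: MALAT1 lies in nuclear speckles, NEAT1 builds paraspeckles, and NORAD binds Pumilio proteins in the cytoplasm. Others are precursors of microRNAs.

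Libraries held 7359034 to 21775030 gene reads, and TMM factors, which correct for composition, were 0.9605 to 1.083. The labelled epithelial kind was checked by summed marker levels: the 6 ductal and epithelial markers reached 414 to 457 CPM in control FOLFIRINOX, 194 to 229 CPM in control vehicle, 766 to 870 CPM in E5 FOLFIRINOX and 739 to 824 CPM in E5 vehicle libraries. Of these 6, 4 reached a mean of 1 CPM in each FOLFIRINOX group and 5 did in each vehicle group. The 3 mesenchymal markers summed to 2101 to 3048 CPM over all libraries, and all 3 reached a mean of 1 CPM in each group. Of 5 leukocyte markers, summed levels were 10.1 to 13.7 CPM in control FOLFIRINOX and 48.6 to 54.8 CPM in control vehicle libraries. They were at most 0.361 CPM in E5 FOLFIRINOX and 0.51 CPM in E5 vehicle libraries. Only 1 of the 5 reached a mean of 1 CPM in each control group and none did in the E5 groups, with CD3E at 0 counts in every group. Acinar and endocrine markers were at or near 0, with CELA3A, CPA1, INS and PRSS1 at 0 counts. The 5 fibroblast markers summed to 8.83 to 10.6 CPM in E5 FOLFIRINOX and 3.23 to 3.61 CPM in control FOLFIRINOX libraries, and to 15.2 to 16.9 CPM in E5 vehicle and 4.15 to 4.57 CPM in control vehicle libraries. Only 1 of these 5 reached a mean of 1 CPM in each group. The 3 endothelial markers summed to 1.99 to 2.79 CPM in E5 FOLFIRINOX and 0.899 to 1.34 CPM in control FOLFIRINOX libraries, and to 6.69 to 7.14 CPM in E5 vehicle and 0.666 to 1.48 CPM in control vehicle libraries. The part of these marker differences in the results was not tested. In bulk RNA, fewer cells with a transcript and less transcript per cell cannot be told apart.

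The level rule itself decides how much a member can differ. Of the 498 lncRNAs, 214 reached 5 CPM in all 4 groups, 43 in 3 groups, 125 in 2 and 116 in 1. Of those in 1 group, 86 did so only in control FOLFIRINOX cells, 18 only in E5 FOLFIRINOX cells, 8 only in E5 vehicle cells and 4 only in control vehicle cells. A further 91 did so in both FOLFIRINOX groups alone. Just inside the threshold lay AC097382.3 at 5.00, DGCR11 at 5.02 and HCG20 at 5.05 CPM in their highest group, and just outside lay HELLPAR at 5.00, AP002387.1 at 4.98 and CHKB-DT at 4.98 CPM. All 498 passed the filter on low counts, and counts over all of them are given as a description. The 344 lncRNAs with a mean of 5 CPM or more over all 12 libraries were counted apart. Such a mean can still admit a member through its high groups, so the 214 that reached 5 CPM in all 4 groups are given as well.

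Per unit of length (authors' FPKM, fragments scaled by gene length and depth), mean levels over all libraries spanned 0.0408 to 294, with a median of 4.29, and 95 members reached 10 FPKM. MALAT1 was highest at 294 FPKM, followed by AC006064.4, which lies antisense to GAPDH, at 246 FPKM. DANCR followed at 70.9 FPKM, NORAD at 57.8, CHASERR at 52.8, PAX8-AS1 at 52.5, MIR4435-2HG at 46.9, NEAT1 at 46.1, AC011603.2 at 45.0 and AC093484.3 at 43.6 FPKM. Of these 10, AC006064.4, AC011603.2 and AC093484.3 stand apart: each overlaps a highly expressed gene on the other strand and held only 1.32%, 1.81% and 1.66% of the counts of GAPDH, TUBA1B and UBB. In all, 270 members overlap a protein-coding gene on the opposite strand, and 61 of them held under 5% of that gene's counts. Whether reads of the opposite gene add to these counts was not tested.

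The share of gene reads in abundant lncRNAs is a description, since many members reached 5 CPM only with FOLFIRINOX and the rule thus builds in part of any rise. The share was 0.900%, 0.854% and 0.893% in control FOLFIRINOX libraries, against 0.633%, 0.652% and 0.606% in control vehicle libraries. It was 0.794%, 0.812% and 0.911% in E5 FOLFIRINOX libraries, against 0.629%, 0.621% and 0.679% in E5 vehicle libraries. The groups did not overlap in either line. For the 344 chosen by overall mean, the mean share was 0.791% in control FOLFIRINOX and 0.589% in control vehicle libraries, and 0.774% in E5 FOLFIRINOX and 0.602% in E5 vehicle libraries. Without MALAT1, which had the largest SD in CPM of all members in every group, the share was 0.787 ± 0.003% in control FOLFIRINOX and 0.523 ± 0.012% in control vehicle libraries, and 0.723 ± 0.024% in E5 FOLFIRINOX and 0.526 ± 0.013% in E5 vehicle libraries (SD, n = 3 each).

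In control cells, 325 of the 498 members were higher with FOLFIRINOX and 66 were lower by edgeR's quasi-likelihood test (adjusted p under 0.05), with a median log2 fold change of 0.70. Over all 15636 genes tested, 65.3% were called, 32.6% higher and 32.7% lower, and the median was 0.00. Of 10727 protein-coding genes that meet the same level rule, 71.4% were called, 31% higher and 40.4% lower, with a median of -0.08. Among the 344 members chosen by their mean over all libraries, 208 were higher and 55 lower, with a median of 0.55. Among the 214 at 5 CPM in all 4 groups, 114 were higher (53.3%) and 35 lower (16.4%), with a median of 0.35. Among 1542 lncRNAs tested below 5 CPM in every group, 49.2% were called, 39.5% higher and 9.66% lower, and the median was 0.46.

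In E5 cells, 292 members were higher with FOLFIRINOX and 56 were lower, with a median log2 fold change of 0.52. Of all genes tested, 52.3% were called, 25% higher and 27.3% lower, with a median of 0.00. Of the protein-coding genes, 60.4% were called, 26.1% higher and 34.3% lower, and of the lncRNAs below 5 CPM, 28.8% were called, 21.1% higher and 7.65% lower. Of the 344 members chosen by overall mean, 191 were higher and 44 lower, with a median of 0.46. Of the 214 at 5 CPM in all 4 groups, 107 were higher (50%) and 30 lower (14%), with a median of 0.34. Both responses were past the test in the same direction for 266 members that were higher (53.4%) and 40 that were lower (8.03%), against 19.1% and 20.8% of all genes tested. Opposite calls in the lines were found for 5 members, HHLA3, AL365181.3, LINC01139, AC117464.1 and TAPT1-AS1, against 287 of 15636 genes tested.

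**Figure D1:**
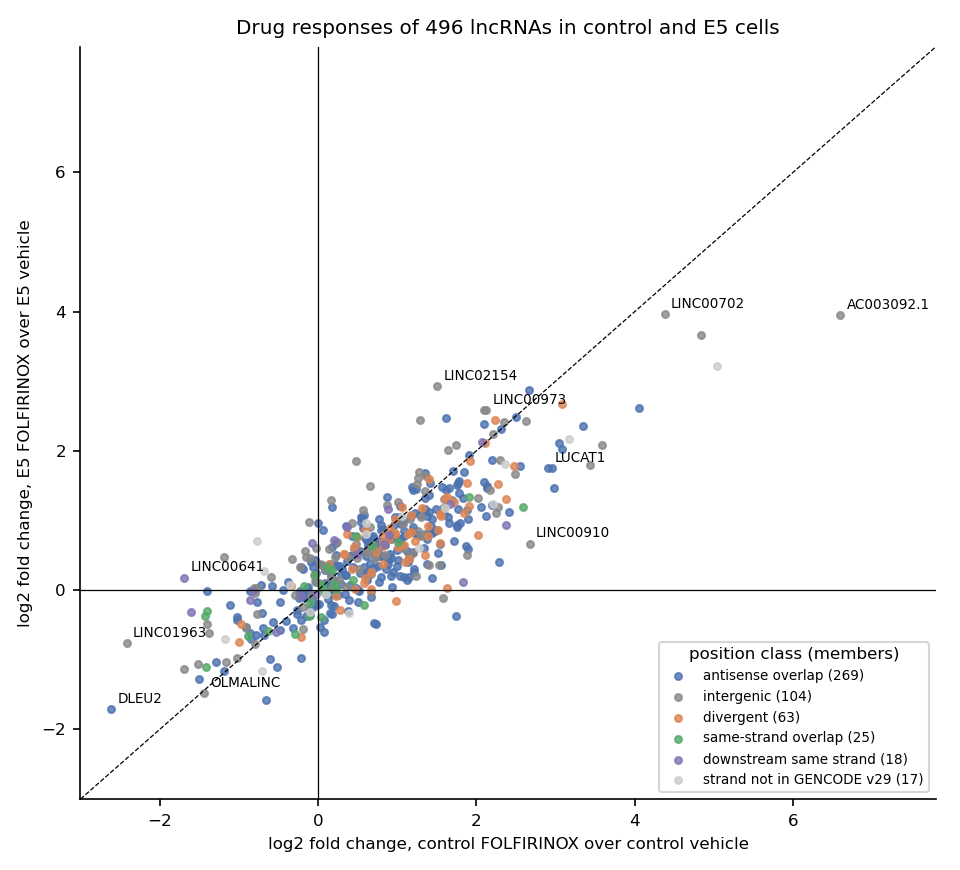
Log2 fold change with FOLFIRINOX in control cells (x axis) and E5 cells (y axis) for 496 lncRNAs, coloured by position relative to protein-coding genes, with a dashed line of equal responses and without HECW2-AS1 and LINC02228, which had 2 counts in E5 vehicle cells. Most points lie right of and above 0, and AC003092.1 lies farthest right at 6.60.

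LUCAT1 (chr5:91054834-91314547, minus strand, antisense to ADGRV1), known as a transcript induced by stress and inflammatory signals, was higher with the drug in both lines and higher in E5 cells under both treatments. Its level was 35.7, 37.3 and 37.2 CPM in control FOLFIRINOX libraries, against 4.11, 5.29 and 4.97 CPM in control vehicle libraries. E5 libraries had 85.9, 88.3 and 101 CPM with FOLFIRINOX, against 27.8, 26.8 and 27.5 CPM with vehicle. None of the 4 groups overlapped, and E5 vehicle cells lay between control vehicle and control FOLFIRINOX cells. The log2 fold change with the drug was 2.90 ± 0.10 (SE) in control cells (edgeR adjusted p = 7.12e-13) and 1.75 ± 0.08 in E5 cells (edgeR adjusted p = 6.31e-11). The E5 over control difference was 2.47 ± 0.10 with vehicle and 1.32 ± 0.08 with FOLFIRINOX. The drug response was smaller in E5 cells, by a difference of -1.16 ± 0.13 (edgeR adjusted p = 9.18e-06).

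LINC00973 (chr3:98981058-98983096, plus strand, intergenic) has been described as a transcript that rises in colon cancer cells given chemotherapy. Here it was 42.1, 46.8 and 45.3 CPM in control FOLFIRINOX libraries, against 9.22, 11.3 and 9.95 CPM in control vehicle libraries. It was 44.8, 44.8 and 44.3 CPM in E5 FOLFIRINOX libraries, against 6.96, 8.22 and 6.88 CPM in E5 vehicle libraries. The FOLFIRINOX groups overlapped each other and lay far above both vehicle groups. The log2 fold change was 2.12 ± 0.09 in control cells (edgeR adjusted p = 6.23e-12) and 2.58 ± 0.10 in E5 cells (edgeR adjusted p = 8.05e-12). The response was 0.46 ± 0.13 larger in E5 cells (edgeR adjusted p = 0.0193), a call lost without control vehicle library 2 (adjusted p = 0.0791) or E5 vehicle library 3 (adjusted p = 0.0647), and on log2(FPKM + 1) by limma (adjusted p = 0.124). Under FOLFIRINOX the lines differed by -0.01 ± 0.08 (edgeR adjusted p = 0.924).

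LINC02154 (chrX:13266048-13303452, minus strand, intergenic) was 108, 116 and 113 CPM in control FOLFIRINOX libraries, against 39.9, 38.2 and 41.0 CPM in control vehicle libraries. E5 libraries had 1.39, 2.06 and 2.06 CPM with FOLFIRINOX, against 0.936, 0.063 and 0 CPM with vehicle. E5 cells thus held almost none of it under either treatment, and the lines did not overlap. The E5 over control log2 difference was -7.39 ± 0.29 with vehicle and -5.96 ± 0.18 with FOLFIRINOX. The drug response was 1.5 ± 0.12 in control cells and 2.93 ± 0.53 in E5 cells, and the difference of the responses did not pass the test (1.43 ± 0.61, edgeR adjusted p = 0.0869). E5 vehicle library 1 held 7 of the E5 vehicle counts. Without it, 1 count remained, E5 FOLFIRINOX exceeded E5 vehicle by a ratio of 49.7 (95% counting interval 8.70 to 1987), control vehicle exceeded E5 vehicle by a ratio of 1096 (95% counting interval 196 to 43316), and the difference of the responses passed the test of edgeR at 3.86.

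**Figure D2:**
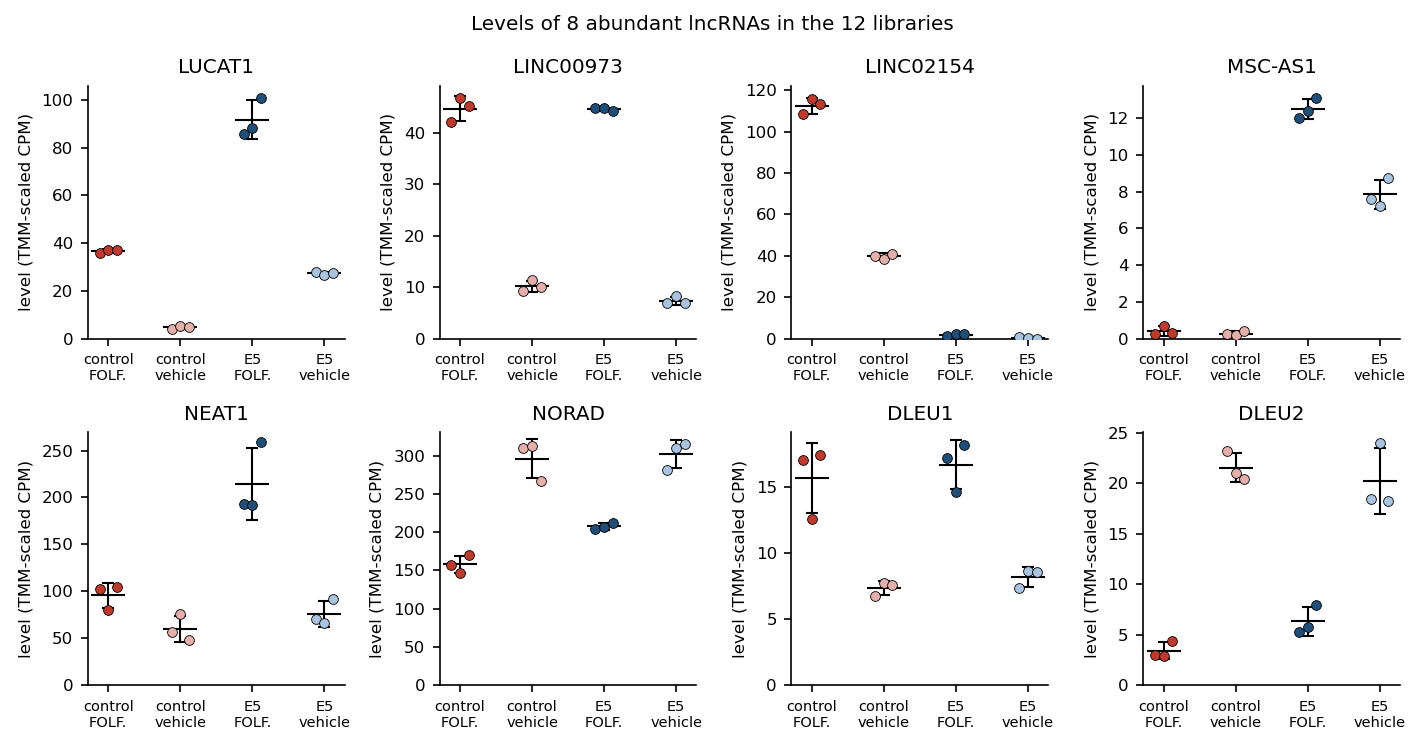
Levels of 8 lncRNAs in TMM-scaled CPM (y axis) in each of the 12 libraries (points), with the mean and SD (bars), for control FOLFIRINOX, control vehicle, E5 FOLFIRINOX and E5 vehicle cells (FOLF. stands for FOLFIRINOX). LUCAT1 is highest in E5 FOLFIRINOX libraries at 85.9 to 101 CPM, whereas LINC02154 is near 0 in both E5 groups.

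The promoters of LUCAT1 and LINC00973 are shown because both transcripts rose in both lines and both windows hold the AP-1 motif TGANTCA, searched on both strands. Each window runs from 250 bases before to 50 bases after the RefSeq start (GRCh38.p14). LUCAT1 lies at chr5:91314353-91314652, minus strand, and its capitals mark an AP-1 motif that overlaps, on the other strand, the antioxidant response element core TGANNNNGC. LINC00973 lies at chr3:98980805-98981104, plus strand, and its capitals mark the AP-1 motif.
LUCAT1: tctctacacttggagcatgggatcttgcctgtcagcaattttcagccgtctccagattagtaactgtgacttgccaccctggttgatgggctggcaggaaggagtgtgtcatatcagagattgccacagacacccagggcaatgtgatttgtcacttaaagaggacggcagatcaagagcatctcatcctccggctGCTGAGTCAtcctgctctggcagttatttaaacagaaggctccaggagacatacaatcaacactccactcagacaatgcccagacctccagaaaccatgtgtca
LINC00973: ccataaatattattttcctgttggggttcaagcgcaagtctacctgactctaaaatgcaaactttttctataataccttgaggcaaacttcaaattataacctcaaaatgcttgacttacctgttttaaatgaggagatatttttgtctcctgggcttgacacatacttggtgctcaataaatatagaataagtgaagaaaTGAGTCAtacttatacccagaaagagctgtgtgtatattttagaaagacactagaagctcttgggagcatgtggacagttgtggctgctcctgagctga
The AP-1 motif begins 52 bases before the RefSeq start of LUCAT1 and 49 bases before that of LINC00973. The counted span of LUCAT1 starts 145 bases upstream of its RefSeq start, so the motif lies inside that span. For LINC00973 the starts are 3 bases apart. Promoter windows matched 229 members. TGANTCA was found in 10.5% of the 124 windows of members higher with drug in both lines, in 12.5% of the 16 windows of members lower in both, and in 7.71% of all 35116 windows. TGANNNNGC was found in 46.8%, 87.5% and 41.8% of these windows. The E-box CACGTG was found in 8.87%, 25% and 7.26% and the CRE motif TGACGTCA in 1.61%, 6.25% and 1.85%. These shares describe letters in the windows and no binding.

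The largest rises with the drug in control cells began from low levels. AC003092.1, an intergenic transcript on chromosome 7, was 8.99, 8.91 and 8.96 CPM in control FOLFIRINOX libraries, against 0, 0.095 and 0.114 CPM in control vehicle libraries. Its log2 fold change was 6.60 ± 0.30 in control cells and 3.95 ± 0.28 in E5 cells, where it was 6.04, 5.12 and 4.82 CPM with FOLFIRINOX, against 0.268, 0.502 and 0.17 CPM with vehicle. It met the level rule only with FOLFIRINOX, so the rule builds in part of its rise. AC110611.2 rose by 5.04 ± 0.32 in control cells and 3.22 ± 0.49 in E5 cells, and AC090192.2 by 4.84 ± 0.22 and 3.67 ± 0.23. LINC00702 rose by 4.38 ± 0.27 and 3.97 ± 0.50. AP002478.1, HECW2-AS1, AP000569.1 and LINC01186 completed the 8 highest in control cells, at 4.06, 3.87, 3.58 and 3.44. All 8 passed the test in both lines, but the rule builds in part of a rise wherever a member met it only with FOLFIRINOX. HECW2-AS1 met it only in control FOLFIRINOX cells, with 20 counts over the control vehicle and 52 over the E5 FOLFIRINOX libraries. In E5 cells HECW2-AS1 and LINC02228 held 2 counts each over the vehicle libraries, and FOLFIRINOX exceeded vehicle by ratios of 18.7 (95% counting interval 4.91 to 158) and 9.33 (2.34 to 81.1).

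The 8 largest falls in control cells were those of DLEU2, LINC01963, LINC02035, LINC00641, AC007406.4, AL035071.1, NR2F1-AS1 and OLMALINC, at -2.61 to -1.44 log2. DLEU2, LINC02035, OLMALINC and NR2F1-AS1 were also among the 8 largest falls in E5 cells, with PSMG3-AS1 at -1.58, AC016394.2 at -1.16, AP001062.1 at -1.16 and AC012531.1 at -1.10. OLMALINC, first described in the maturation of oligodendrocytes, was 21.8, 21.2 and 19.6 CPM in control FOLFIRINOX libraries, against 54.8, 54.98 and 59.2 CPM in control vehicle libraries. It was 17.3, 15.7 and 16.8 CPM in E5 FOLFIRINOX libraries, against 49.4, 43.6 and 46.8 CPM in E5 vehicle libraries. Its log2 fold change was -1.44 ± 0.08 in control and -1.48 ± 0.08 in E5 cells, and the difference of -0.04 ± 0.11 did not pass (edgeR adjusted p = 0.822). NR2F1-AS1 fell by 1.5 in control cells and by 1.28 in E5 cells, and NR2F1, the nuclear receptor gene on the other strand, fell by 1.76 and by 0.94.

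DLEU1 and DLEU2, neighbours in the 13q14 region deleted in chronic lymphocytic leukaemia, moved in opposite directions. DLEU2 (chr13:49956670-50125720, minus strand) was 2.95, 2.92 and 4.397 CPM in control FOLFIRINOX libraries, against 23.2, 21.03 and 20.5 CPM in control vehicle libraries. In E5 cells it was 5.21, 5.76 and 7.97 CPM with FOLFIRINOX, against 18.5, 23.98 and 18.3 CPM with vehicle. It fell by 2.61 ± 0.17 and by 1.71 ± 0.16, and the response was weaker in E5 cells by 0.91 ± 0.25 (edgeR adjusted p = 0.0123). DLEU1 (chr13:50082169-50906856, plus strand) was 17.1, 12.6 and 17.4 CPM in control FOLFIRINOX libraries, against 6.78, 7.77 and 7.60 CPM in control vehicle libraries. It rose by 1.05 ± 0.13 in control cells and 1.01 ± 0.14 in E5 cells. Their spans overlap on opposite strands.

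DLEU2 holds the genes of miR-15a and miR-16, which share a seed and are known to target BCL2. The counts measure the host transcript, not the mature microRNA. Of the members on the chromosomes searched, 27 held a mature microRNA of the same strand in their span, in 83 pairings of a host with a mature microRNA, some of them repeated (RefSeq, GRCh38.p14). For 4 hosts that changed in both lines, some of their microRNAs, picked as well-known arms, are shown with the seed (bases 2 to 8) in capitals, and the others are left out. In DLEU2:
miR-15a-5p: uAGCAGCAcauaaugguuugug
miR-16-5p: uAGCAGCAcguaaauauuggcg
In MIRLET7BHG:
let-7a-5p: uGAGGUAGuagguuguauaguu
let-7b-5p: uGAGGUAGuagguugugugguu
In MIR181A2HG:
miR-181a-5p: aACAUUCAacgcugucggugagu
miR-181b-5p: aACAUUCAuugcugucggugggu
In MIR22HG:
miR-22-3p: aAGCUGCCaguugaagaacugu
Within each of the first 3 hosts the shown microRNAs share a seed. MIRLET7BHG, whose let-7 products are known to repress growth genes, was 10.1, 14.2 and 11.7 CPM in control FOLFIRINOX libraries, against 1.67, 2.53 and 2.92 CPM in control vehicle libraries. It rose by 2.30 ± 0.17 in control cells and 1.87 ± 0.19 in E5 cells. MIR181A2HG rose by 2.66 ± 0.18 and 2.87 ± 0.23, and MIR22HG by 0.94 ± 0.09 and 0.82 ± 0.08. MIRLET7BHG and MIR181A2HG met the level rule only with FOLFIRINOX, so the rule builds in part of their rises.

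Of the 16 members named as microRNA hosts, 6 were higher and 4 lower with the drug in control cells, and 9 were higher and none lower in E5 cells (median log2 fold changes 0.19 and 0.43). Among all members 65.3% were higher and 13.3% lower in control cells, and 58.6% and 11.2% in E5 cells. The difference of the responses passed the test for 6 of the 16 hosts, all toward a higher value in E5 cells. Over all genes 13.3% were higher and 12.4% lower, and over all members 9.24% and 18.3%. MIR193BHG was 2.57, 2.58 and 2.004 CPM in control FOLFIRINOX libraries, against 1.55, 2.81 and 1.60 CPM in control vehicle libraries. In E5 cells it was 9.55, 7.68 and 9.45 CPM with FOLFIRINOX, against 3.61, 3.52 and 3.83 CPM with vehicle, a rise of 1.29 ± 0.18. MIR600HG and MIR4500HG fell by 1.40 and by 0.86 in control cells and were at -0.31 and -0.01 in E5 cells, where neither passed. MIR4435-2HG, also among the 6 hosts whose responses differed, fell by 0.72 ± 0.08 in control cells but was 0.56 higher on log2(FPKM + 1). It has a near-identical relative, CYTOR, on the same chromosome, so its counts and those of CYTOR are uncertain.

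Among 6 lncRNAs of nuclear bodies and scaffolds, 2 rose and 2 fell in each line. Among all members 65.3% were higher and 13.3% lower in control cells, and 58.6% and 11.2% in E5 cells. NEAT1 was 102, 80.3 and 104 CPM in control FOLFIRINOX libraries, against 56.6, 75.3 and 47.9 CPM in control vehicle libraries. E5 libraries had 193, 192 and 259 CPM with FOLFIRINOX, against 70.2, 65.7 and 91.7 CPM with vehicle. The rise was 0.66 ± 0.16 in control cells and 1.5 ± 0.16 in E5 cells, a difference of 0.84 ± 0.23 (edgeR adjusted p = 0.0126). Of 15 genes of paraspeckle proteins, the partners of NEAT1, 1 was higher and 11 lower in control cells, and 3 were higher and 7 lower in E5 cells. Among protein-coding genes 31% were higher and 40.4% lower in control cells, and 26.1% and 34.3% in E5 cells. SFPQ fell by 0.70 and by 0.16.

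NORAD was 157, 147 and 170 CPM in control FOLFIRINOX libraries, against 310, 312 and 267 CPM in control vehicle libraries. It was 204, 207 and 212 CPM in E5 FOLFIRINOX libraries, against 281, 310 and 316 CPM in E5 vehicle libraries. Its fall was 0.36 ± 0.10 smaller in E5 cells (edgeR adjusted p = 0.0148), since it fell by 0.91 ± 0.07 in control and by 0.54 ± 0.07 in E5 cells. OIP5-AS1, which is known to bind miR-7, fell by 0.78 and by 0.65. LINC-PINT, an RNA induced by p53, rose by 1.07 and 0.62. MALAT1 was at -0.29 ± 0.20 in control cells (edgeR adjusted p = 0.205) and at -0.07 ± 0.20 in E5 cells (edgeR adjusted p = 0.787). Its libraries lay far apart within groups, between 645 and 1048 CPM in control FOLFIRINOX cells (SD 225 CPM) and wider in E5 FOLFIRINOX cells (SD 394 CPM).

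Of 6 p53-linked members, 4 were higher and 1 lower in each line. Among all 498 members, 65.3% were higher and 13.3% lower in control cells, and 58.6% and 11.2% in E5 cells. Over all genes tested these shares were 32.6% and 32.7% in control cells, and 25% and 27.3% in E5 cells. PVT1, beside MYC, rose by 0.84 ± 0.07 and 0.51 ± 0.07, LINC00667 by 1.39 and 0.82, and NEAT1 and LINC-PINT as given above. TP53TG1 fell by 0.98 and by 0.48, and PURPL, a p53-controlled RNA, did not pass in either line at 0.08 and 0.29. Of 5 inflammation-linked members, LUCAT1, NEAT1 and MIR22HG rose in both lines and none fell, where 53.4% of all members and 19.1% of all genes tested rose in both. IRF1-AS1, the single interferon-linked member, was -0.09 in control cells without passing and rose by 0.41 in E5 cells. KCNQ1OT1, the single imprinted member, passed in neither line. No hypoxia-linked lncRNA of the list was a member.

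Of 11 cancer-linked members, 7 were higher in both lines, namely PVT1, CYTOR, DANCR, FOXD2-AS1, LINC00511, CASC9 and DLEU1. Among all members 53.4% were higher in both lines, and among all genes tested 19.1%. In control cells CRNDE and DLEU2 were lower, and in E5 cells DLEU2 was lower. DANCR rose by 0.58 ± 0.07 in control cells and 1.07 ± 0.08 in E5 cells. LINC00511 was 8.86, 7.62 and 8.46 CPM in control FOLFIRINOX libraries, against 3.67, 3.004 and 3.26 CPM in control vehicle libraries, and it was 24.4, 20.8 and 19.7 CPM in E5 FOLFIRINOX libraries, against 12.2, 11.6 and 13.6 CPM in E5 vehicle libraries. Of 3 HOX lncRNAs, HOXB-AS1 rose by 0.60 and 0.50 and HOXA-AS2 fell by 0.69 and by 0.55. Of 16 genes of the nuclear exosome and its adaptors, 9 were higher and 3 lower in control cells, and 7 were higher and none lower in E5 cells, against 31% of protein-coding genes higher and 40.4% lower in control cells and 26.1% and 34.3% in E5 cells. EXOSC2, a core subunit, rose by 0.53 and 0.45.

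By position, 270 members overlap a protein-coding gene on the other strand and 105 are intergenic. Another 63 are divergent (a start within 2000 bases of a protein-coding start, on the other strand, without overlap). A transcript named as divergent that overlaps its gene, such as ITGB1-DT, counts with the 270. Of the rest, 25 overlap a gene on the same strand and 18 lie within 5000 bases downstream. The strand of 17 was not found in GENCODE v29. Divergent lncRNAs rose most often: in control cells 57 of 63 were higher and 3 lower with the drug (median log2 fold change 1.06), and in E5 cells 49 were higher and 4 lower (median 0.78). Among the 46 of these with a mean of 5 CPM over all libraries, 43 were higher and 2 lower in control cells, and 36 and 2 in E5 cells. Such a mean can still admit a member through its drug groups, so the level rule builds in part of these rises. The classes were not counted among the members at 5 CPM in all 4 groups. The antisense overlap class had 178 of 270 higher and 30 lower in control cells (median 0.72), the intergenic class 65 of 105 and 18 (median 0.66), and the same-strand overlap class 7 of 25 and 5 (median 0.07).

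Calls for the protein-coding neighbours of the divergent lncRNAs were split between both directions. Of 62 pairs with a tested neighbour, 56 lncRNAs were higher and 3 lower in control cells, whereas 16 neighbours were higher and 24 lower, with medians of 1.04 and -0.11. In E5 cells 48 lncRNAs were higher and 4 lower, and 16 neighbours were higher and 24 lower, with medians of 0.78 and -0.07. The level rule chose the lncRNAs and not their neighbours, so part of this contrast is built in. KLHL7-DT was 9.25, 8.62 and 10.8 CPM in control FOLFIRINOX libraries, against 1.44, 1.05 and 1.03 CPM in control vehicle libraries. It rose by 3.09 ± 0.19, while KLHL7 stood at 0.08 and did not pass. SRP14-AS1 rose by 2.38 with SRP14 at 0.01. These 2 divergent lncRNAs and their neighbours were picked after their values were seen. BAIAP2-DT, TP53TG1 and CRNDE were the 3 divergent members lower in control cells.

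**Figure D3:**
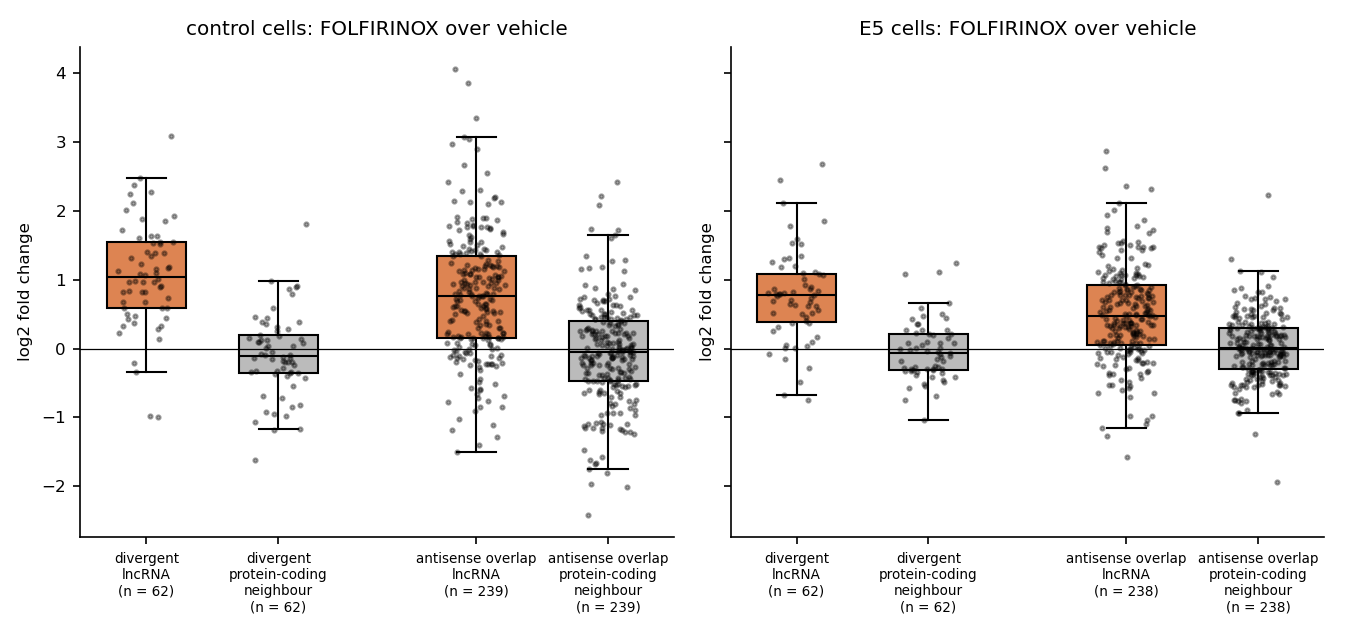
Log2 fold change with FOLFIRINOX of divergent and antisense lncRNAs and of their protein-coding neighbours, in control cells (left) and E5 cells (right); boxes span the quartiles with the median as a line, whiskers reach up to 1.5 box lengths, points are genes, and pairs with 3 or fewer counts in a group are left out. The medians of the lncRNAs lie above 0 and those of the neighbours near 0. The level rule applied to the lncRNAs only, which builds in part of this contrast.

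Between the lines the pattern was different. In vehicle, 103 members were higher and 91 lower in E5 than in control cells, with a median log2 difference of 0.01, while 44.3% of all genes tested were called, 22.1% higher and 22.2% lower. With FOLFIRINOX, 97 were higher and 195 lower in E5 cells (median -0.18), while 54.3% of all genes were called, 26.7% higher and 27.6% lower. Among the 344 members chosen by overall mean these counts were 78 higher and 69 lower in vehicle, and 76 higher and 108 lower with FOLFIRINOX. The rule admitted 86 members through control FOLFIRINOX cells alone and 18 through E5 FOLFIRINOX cells alone, which builds in part of the lower calls. Of the 214 members at 5 CPM in all 4 groups, 46 were higher (21.5%) and 57 lower (26.6%) with FOLFIRINOX, with a median of -0.06. Under both treatments 52 members (10.4%) were higher in E5 cells and 62 (12.4%) were lower, against 14.9% and 13.3% of all genes tested. Opposite calls under the treatments were found for 21 of the 498 members, against 419 of 15636 genes tested. The comparisons share libraries with the drug comparisons.

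The 8 highest E5 over control differences in vehicle were those of MSC-AS1, LINC01602, LINC00525, LINC01116, AL136131.3, AP003119.3, LUCAT1 and LINC01138, at 4.80 to 2.13 log2. MSC-AS1 was 12.03, 12.4 and 13.1 CPM in E5 FOLFIRINOX libraries, against 0.257, 0.693 and 0.278 CPM in control FOLFIRINOX libraries. It was 7.62, 7.22 and 8.76 CPM in E5 vehicle libraries, against 0.222, 0.191 and 0.400 CPM in control vehicle libraries. Its opposite-strand neighbour MSC, which codes for the transcription factor musculin, had 130 counts over the E5 vehicle libraries and 0 over the control vehicle libraries, so it was at least 58.5-fold higher against a floor of 3 counts over the group. LINC01602 was 8.43, 7.28 and 7.05 CPM in E5 vehicle libraries, against 0.444, 0.763 and 0.343 CPM in control vehicle libraries. AL136131.3, antisense to VEGFA, held under 1% of that gene's counts (0.865%), and it and VEGFA were higher in E5 vehicle cells by 2.64 ± 0.44 and 2.37.

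The 8 lowest in vehicle were LINC02154, TRHDE-AS1, LINC02228, HECW2-AS1, LINC01776, AC117464.1, LINC02535 and SFTA1P. TRHDE-AS1 was 0.31, 0.142 and 0.386 CPM in E5 FOLFIRINOX libraries, against 12.8, 11.1 and 14.5 CPM in control FOLFIRINOX libraries. It was 0, 0.251 and 0.085 CPM in E5 vehicle libraries, against 12.3, 13.4 and 12.5 CPM in control vehicle libraries, a difference of -6.41 ± 0.31. TRHDE on the other strand, which codes for an enzyme that cleaves thyrotropin-releasing hormone, was lower by 6.07. LINC02228 held 2 counts in E5 vehicle and 231 in control vehicle cells, where control exceeded E5 by a ratio of 85.6 (95% counting interval 23.4 to 711). SFTA1P, a pseudogene-derived transcript, was 5.89, 4.77 and 6.54 CPM in E5 vehicle libraries, against 17.8, 18.6 and 21.1 CPM in control vehicle libraries.

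With FOLFIRINOX the highest E5 over control differences were those of MSC-AS1 at 4.75, AL136131.3 at 3.65 and LINC01602 at 2.93, followed by DNAH10OS, LINC01116, AP003119.3, LINC01151 and IRF1-AS1. IRF1-AS1 was 21.6, 19.7 and 19.5 CPM in E5 FOLFIRINOX libraries, against 4.24, 4.70 and 5.79 CPM in control FOLFIRINOX libraries. IRF1, the interferon regulatory factor on the other strand, was 1.56 higher, and IRF1-AS1 was 2.01 ± 0.13 higher. The lowest were LINC02154 at -5.96, TRHDE-AS1 at -5.44, LINC02228 at -4.23, AL049775.1 at -2.67, HECW2-AS1 at -2.54, AL365181.3 at -2.40, LRP4-AS1 at -2.34 and AC110611.2 at -2.16.

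Across members, line differences of antisense lncRNAs and their neighbours ran together more than drug responses did. Pearson's r was 0.66 over 237 antisense pairs in vehicle and 0.55 over 240 with FOLFIRINOX, and 0.50 and 0.52 over 62 divergent pairs. Without the 2 neighbours farthest from the median these values were 0.48, 0.39, 0.51 and 0.41. For the drug responses r was 0.17 and 0.22 over 239 and 238 antisense pairs in control and E5 cells, and 0.25 and 0.09 over 62 divergent pairs. These are descriptions across genes that share the same libraries and depth, and genes are not independent replicates.

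**Figure D4:**
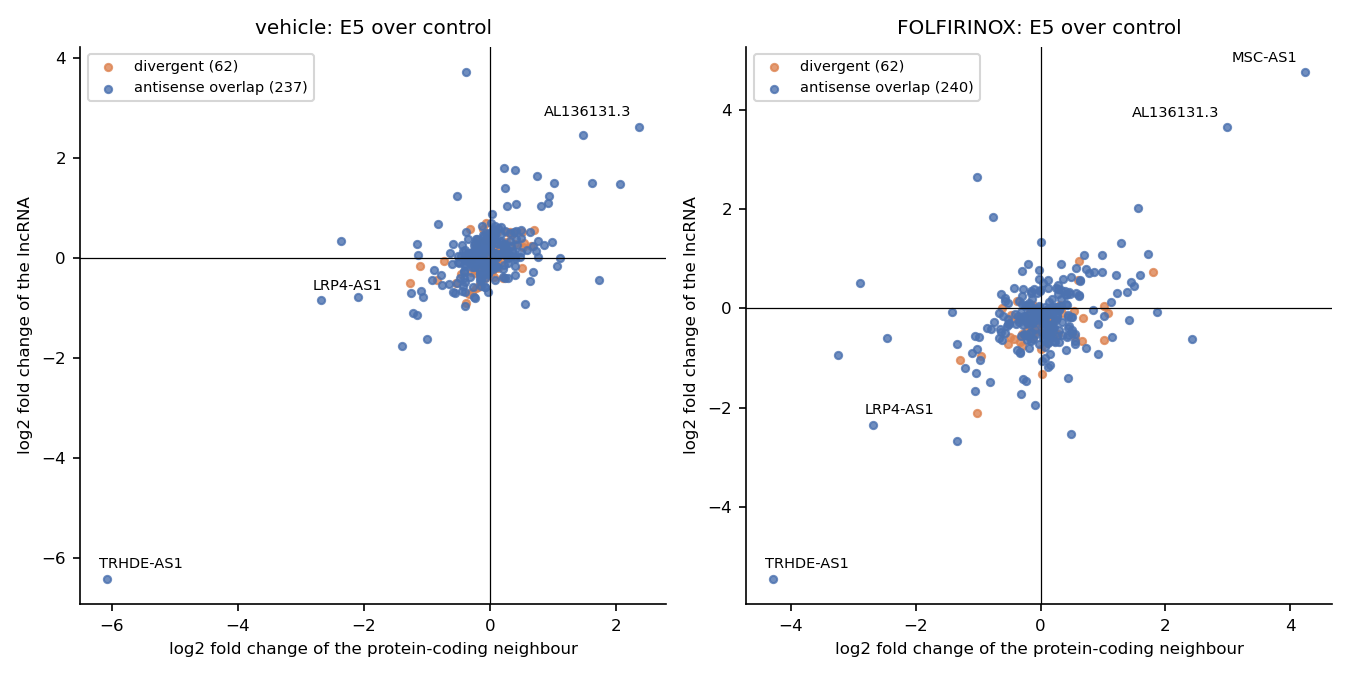
Log2 difference E5 over control of each antisense or divergent lncRNA (y axis) against that of its protein-coding neighbour (x axis), with vehicle (left) and FOLFIRINOX (right), without pairs that had 3 or fewer counts in a group, such as MSC-AS1 and MSC in vehicle. TRHDE-AS1 and TRHDE lie together at the lower left of both panels.

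The line differences in vehicle are given for 4 chromosomes picked after their values were seen, and no pattern over the other chromosomes is drawn from them. On chromosome 10, 2 of 31 members were higher and 14 lower in E5 cells, where 11.1% of 642 genes tested were higher and 53.1% lower. On chromosome 18, none of 12 was higher and 5 were lower, where 11.9% of 226 genes were higher and 50% lower. On chromosome 7, 16 of 38 were higher and 1 lower, where 33.6% of 797 genes were higher and 10.3% lower. On chromosome 16, 4 of 16 members were higher and 4 lower, where 12.1% of 663 genes were higher and 31.1% lower.

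The drug response itself differed between the lines for 137 members. It was higher in E5 cells for 46 and lower for 91, with a median difference of -0.13 log2, while 25.7% of all genes tested were called, 13.3% higher and 12.4% lower. The 46 became 27 without control vehicle library 2, 30 without E5 vehicle library 2, and 13 and 12 on log2(FPKM + 1) and log2(FPKM + 0.1). Of the 344 chosen by overall mean, 38 were higher and 64 lower. Of the 214 at 5 CPM in all 4 groups, 27 were higher and 36 lower, with a median of -0.03. LINC00910 had the smallest p among the 12 members with the largest differences: it was 41.6, 37.8 and 40.5 CPM in control FOLFIRINOX libraries, against 5.67, 6.44 and 6.401 CPM in control vehicle libraries. In E5 cells it was 18.0, 19.4 and 21.3 CPM with FOLFIRINOX, against 13.8, 11.4 and 12.2 CPM with vehicle. LINC00641, downstream of HNRNPC, was 9.12, 7.77 and 11.2 CPM in control FOLFIRINOX libraries, against 30.5, 32.5 and 27.6 CPM in control vehicle libraries. In E5 cells it was 24.3, 24.4 and 29.5 CPM with FOLFIRINOX, against 22.9, 23.1 and 23.0 CPM with vehicle, so that its E5 groups did not overlap and yet the change of 0.18 ± 0.11 did not pass (edgeR adjusted p = 0.197).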

How the data were processed

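The counts used are stranded read counts per gene that the authors deposited. Tools named are Trimmomatic and STAR 2.5.1b, and the build GRCh38, per the submitters' processing notes, which give no order of steps. FPKM values were deposited by the authors, by a program that no source names. The third deposited table holds rlog values (regularised log2 counts), going by the name the authors gave it. RNA came from a column kit and libraries from an mRNA kit, per the labels. Rows that name no gene held 22.96 to 25.8% of reads and stayed out of library sizes.

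Counts were tested by the quasi-likelihood F test of edgeR 4.0.16 (R 4.3.3), fitted over the whole table (4 groups, 1 model, TMM, filterByExpr, 15636 genes, Benjamini-Hochberg at 0.05), a fit tested on simulated data. The biological coefficient of variation was 7.37%. CPM levels are TMM-scaled and errors of log2 fold changes are SE. The floor for a group at 0 was 3 counts, or 0.0612 to 0.0853 CPM, and intervals cover counting error only. Positions use the files' coordinates and GENCODE v29 strands, in which 481 members were found. Members, lists and tests were chosen with earlier results of these data known. Named members were the 8 highest and 8 lowest called in each comparison of 2 groups, 6 each way for the difference of responses, the 10 of highest FPKM, LUCAT1, LINC00973, LINC02154 and list members. Alternatives used DESeq2 1.42.0, limma 3.58.1 on log2(FPKM + 1), log2(FPKM + 0.1) and rlog values, other scaling, filters, membership and left-out libraries. MicroRNAs were not searched for in members on chromosome 8. Some items are not reported here.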

Additional observations from a re-analysis of the deposited data

Results flagged for a closer look

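The drug response differed between the lines, by the test of the difference itself, for the 6 members with the largest difference each way and for LUCAT1 and LINC00973. Other members named in the report, such as NEAT1, NORAD and DLEU2, passed that test too. The difference of the log2 responses (E5 minus control) was 1.87 for LINC00641, which was at 0.18 in E5 and -1.69 in control cells. It was 1.66 for LINC01963, which fell in both lines, by 0.76 in E5 and by 2.42 in control cells. It was 1.66 for Z83843.1, 1.48 for AC117464.1, 1.39 for DNAH10OS and 1.37 for MIR3681HG. AC117464.1 rose by 0.71 in E5 cells and fell by 0.77 in control cells. LINC00973 differed by 0.46.

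The difference was -2.65 for AC003092.1, -2.11 for AC007773.1, -2.0 for LINC00910, -1.89 for LINC00525, -1.70 for LINC01569, -1.68 for LINC01270 and -1.16 for LUCAT1. AC007773.1, LINC01569 and LINC01270 rose in control cells, by 1.74, 1.83 and 1.57, and stood at -0.37, 0.12 and -0.11 in E5 cells, where none passed the test. LINC00525 and LINC00910 rose in both lines, by 0.40 and 0.67 in E5 and by 2.29 and 2.67 in control cells.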

How the results depend on the processing

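Among the 263 values of named members, 4999 of 5242 recomputed values stayed on the same side of the threshold without a counted reversal. A reversal was counted only where the main or the alternative fit passed. A value past the test in neither fit may thus have changed direction uncounted. Of the others, 160 no longer passed, 75 newly passed and 8 reversed. Under every alternative run, 197 of the values were unchanged in this sense. The reversals were CHASERR with drug in control cells (0.23 and 0.24 on log2(FPKM + 1) and log2(FPKM + 0.1), -0.04 in counts), MIR4435-2HG there (0.56 and 0.57), OIP5-AS1 between the lines with FOLFIRINOX (-0.21 and -0.22) and the LINC02154 difference of responses (-0.68 on log2(FPKM + 1), -0.64 on rlog values); the cause was not tested. The median log2 fold change of all genes with drug in control cells was 0.14 and 0.19 on the FPKM scales and 0.14 with total counts, against 0.00 with TMM.

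Counts below run in the order drug in control cells, drug in E5 cells, E5 over control in vehicle, E5 over control with FOLFIRINOX, and difference of responses. With 10 CPM or more in a group (248 members, so fewer tested) they were 200, 187, 124, 149 and 85 called, 164, 154, 64, 57 and 29 higher, and 36, 33, 60, 92 and 56 lower. With 5 CPM in all 4 groups (214, chosen after seeing the data) they were 149, 137, 87, 103 and 63 called, 114, 107, 46, 46 and 27 higher, and 35, 30, 41, 57 and 36 lower. With 5 CPM over all libraries (344), 208 and 191 were higher with drug in control and E5 cells, and with FOLFIRINOX 184 were called and 108 lower between the lines. On log2(FPKM + 1), 43 and 34 were lower with drug in control and E5 cells and 13 differences were higher. On log2(FPKM + 0.1) these were 43, 31 and 12, and 58 were higher in E5 cells with FOLFIRINOX.

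The read share, in control FOLFIRINOX, control vehicle, E5 FOLFIRINOX and E5 vehicle cells, was 0.791%, 0.589%, 0.774% and 0.602% for the 344, 0.725%, 0.537%, 0.710% and 0.550% for the 248, and 0.787%, 0.523%, 0.723% and 0.526% without MALAT1 (chosen after seeing the data).

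Leaving out each library in turn gave 370 to 390, 310 to 356, 161 to 203, 263 to 296 and 100 to 130 called, 311 to 325, 261 to 299, 86 to 108, 90 to 101 and 27 to 43 higher, and 59 to 66, 46 to 57, 74 to 95, 171 to 195 and 71 to 89 lower. The 46 higher differences fell to 27 without control vehicle library 2 and to 30 without E5 vehicle library 2.

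Same-numbered libraries did not deviate together (correlations -0.188 to 0.148). These values show no pairing by number but cannot exclude it. With the replicate block, 390, 346, 188, 285 and 123 members were called, 38 differences were higher, and 3 named values no longer passed.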
